A study of Mus musculus with 15 samples.

Results

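The mouse mitochondrial genome is transcribed in full, and its transcripts are identifiable in the expression table by gene symbols that begin with mt-. After stray spaces were removed from the symbols, 37 of the 47069 genes carried this prefix. They are 13 protein genes, 2 ribosomal RNA genes and 22 transfer RNA genes, and they were kept as separate classes throughout. Of the 37 genes, 9 were above 0 in all 15 libraries and 28 were listed at 0 in every library. The 9 were 7 protein genes and both ribosomal RNAs.

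The libraries came from kidneys of C57BL/6 males of 2 months. Of these, 12 were single proximal tubules dissected by hand and labelled PTS2, in sets named m1, m2 and m3 of 4 replicates each, and 3 were whole kidney. The labels name no treatment or genotype, do not explain the letter m or the replicate numbers, and do not say whether replicates came from separate animals. The p-values therefore measure the spread between these libraries, part of which may be technical. Values are TPM, transcript abundances scaled to transcript length and to a fixed total per library. The sequencing depth behind a TPM value is unknown, so no counting interval or detection limit is given.

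Mitochondrial DNA is read from both strands into long precursor RNAs. In the usual account the transfer RNAs that lie between the other genes are cut out, which frees the messenger and ribosomal RNAs, and most messengers then receive a short poly(A) tail. The protein genes encode core subunits of respiratory complexes I, III and IV and of the ATP synthase. The other subunits come from nuclear genes. Proximal tubule cells are rich in mitochondria, which power the reabsorption of salt and solutes.

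The gene order bears on what a library can count. The stretch from mt-Rnr2, the large ribosomal RNA, to mt-Nd1, a complex I subunit, is shown because it holds a complete transfer RNA, mt-Tl1, with no spacer on either side. It is chrM:2651-2775 on the plus strand of GRCm38 (GENCODE M21), with mt-Tl1 in capitals.
mt-Rnr2 to mt-Nd1: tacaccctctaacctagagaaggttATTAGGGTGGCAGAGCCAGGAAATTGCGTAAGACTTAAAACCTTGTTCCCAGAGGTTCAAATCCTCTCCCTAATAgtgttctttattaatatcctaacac

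Neighbouring protein genes also overlap. mt-Atp8 and mt-Atp6, which encode ATP synthase subunits, share 43 bases, and mt-Nd4l and mt-Nd4 share 7 bases. mt-Nd5 and mt-Nd6 share 14 bases at their 3′ ends but lie on opposite strands, and both ends are shown with the shared bases in capitals (chrM:13526-13565 on the plus strand and chrM:13552-13591 on the minus strand). Whether counting used the strand is not given in the sources used here, so reads from this overlap, and reads antisense to either gene, cannot be told apart.
mt-Nd5: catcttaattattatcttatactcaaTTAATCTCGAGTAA
mt-Nd6: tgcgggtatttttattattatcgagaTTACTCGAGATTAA

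Of the 13 protein genes, 10 end in a full stop codon and 3 (mt-Co3, mt-Nd4 and mt-Cytb) end in a lone T, which the poly(A) tail is known to complete to a stop codon. The last 24 bases of mt-Cytb (chrM:15265-15288), mt-Nd4 (chrM:11521-11544) and mt-Nd1 (chrM:3684-3707) are shown with the stop codon or its first base in capitals. Genes with a lone T were found on both sides of the detection split, since mt-Cytb and mt-Nd4 were abundant and mt-Co3 was listed at 0.
mt-Cytb: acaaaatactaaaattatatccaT
mt-Nd4: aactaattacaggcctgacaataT
mt-Nd1: gcgggagtaccaccatacataTAG

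The 28 genes listed at 0 were all 22 transfer RNAs and 6 protein genes. The transfer RNAs are 59 to 75 bases long. None of the 1000 other genes of the table whose longest annotated transcript has at most 75 bases was above 0 in any library, so this length class as a whole was at 0. The labels also give the RNA as polyadenylated, and mature transfer RNAs carry no poly(A) tail. The part of length and of the missing tail in these zeros was not tested, and they cannot be separated here.

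The 6 protein genes at 0 were mt-Co2 and mt-Co3 (complex IV), mt-Atp8 and mt-Atp6 (ATP synthase), and mt-Nd3 and mt-Nd4l (complex I). They are adjacent protein genes on the plus strand, from mt-Co2 (chrM:7013-7696) to mt-Nd4l (chrM:9877-10173), and they are 204 to 784 bases long. Among other protein-coding genes whose longest transcript has 200 to 800 bases, 622 of 1183 (52.6%) were above 0 in at least 1 library. The genes on both sides of this block were abundant: mt-Co1 (chrM:5328-6872) averaged 5606 TPM in the tubules and mt-Nd4 (chrM:10167-11544) 2804 TPM.

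The block at 0 coincides with sequence that the nuclear genome also carries. Annotated nuclear genes with at least 200 bases at 95% identity or more to a mitochondrial gene numbered 11, of which 7 lie on the minus strand of chromosome 1 within chr1:24611535-24616197, a span of 4663 bases that runs collinear with the mitochondrial genes. Of the 50-base windows of each gene, 100% were found exactly in another gene's transcript for mt-Co2, 99.9% for mt-Co3, 99.5% for mt-Atp6 and 98.8% for mt-Nd4l, and 293 of 299 windows were for mt-Nd3. The share was 62.2% for mt-Nd4, 51.1% for mt-Co1, 8.19% for mt-Nd2, 7.61% for mt-Nd5 and 1.04% for mt-Rnr2. It was 0 for mt-Cytb, mt-Nd1, mt-Nd6 and mt-Rnr1, all of which were above 0, and also 0 for mt-Atp8, which was listed at 0. mt-Atp8 lies between mt-Co2 and mt-Atp6. Its last 43 bases, which it shares with mt-Atp6, are in the copy Gm10925, but that stretch is shorter than a window of 50 bases. The search covered annotated transcripts only. On chromosome 1 it did not read the stretch between Gm10925 (chr1:24613974-24614651) and Gm28661, the copy of mt-Co2 (chr1:24614885-24615565). Whether that stretch holds the rest of mt-Atp8 is therefore not known. How reads that match several places were counted is not given in the sources used here, and the part of these copies in the listed zeros was not tested.

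How close the copies are is visible in the sequences of 3 of the gene pairs. The first 60 bases of mt-Atp6 (chrM:7927-7986) are identical in its copy Gm10925 (chr1:24614592-24614651, minus strand). mt-Nd3 (first 33 bases, chrM:9459-9491) and its copy Gm28438 (chr1:24613087-24613119, minus strand) differ over 345 aligned bases by 1 substitution, T3C. mt-Co1 (chrM:6390-6423) and Gm29216 (chr1:24616155-24616188, minus strand) differ by A1066T over their 483 aligned bases. Positions count from 1 at the 5′ end of the mitochondrial gene, whose base is given first, and capitals mark the differing base.
mt-Atp6 and Gm10925: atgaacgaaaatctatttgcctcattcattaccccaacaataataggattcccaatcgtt
mt-Nd3: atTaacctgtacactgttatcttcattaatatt
Gm28438: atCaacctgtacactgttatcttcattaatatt
mt-Co1: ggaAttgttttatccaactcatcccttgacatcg
Gm29216: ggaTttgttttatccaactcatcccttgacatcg

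The copies themselves carried little signal. Gm10925, Gm28661 (copy of mt-Co2), Gm28437 (mt-Co3), Gm10222 (mt-Nd4l) and Gm28439 (the first 876 bases of mt-Nd4) were listed at 0 in every library. Only 3 of the 11 copies reached 1 TPM in any library, and each of these differs from its mitochondrial gene by at least 1 base. Gm28438 was at 0.40 to 5.21 TPM in the tubules and at 5.96, 3.81 and 5.47 TPM in whole kidney. Gm13341, a copy of mt-Co2 on chromosome 2 with 95.9% identity, was at 3.76 to 5.71 TPM in the tubules and at 7.38, 6.09 and 7.33 TPM in whole kidney. Its first 60 bases (chr2:22587903-22587962, minus strand) are shown against those of mt-Co2 (chrM:7013-7072), with the substitutions C25T and G57A in capitals.
mt-Co2: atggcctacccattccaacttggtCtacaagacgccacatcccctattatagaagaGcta
Gm13341: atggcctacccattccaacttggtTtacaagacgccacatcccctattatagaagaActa

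**Figure D1:**
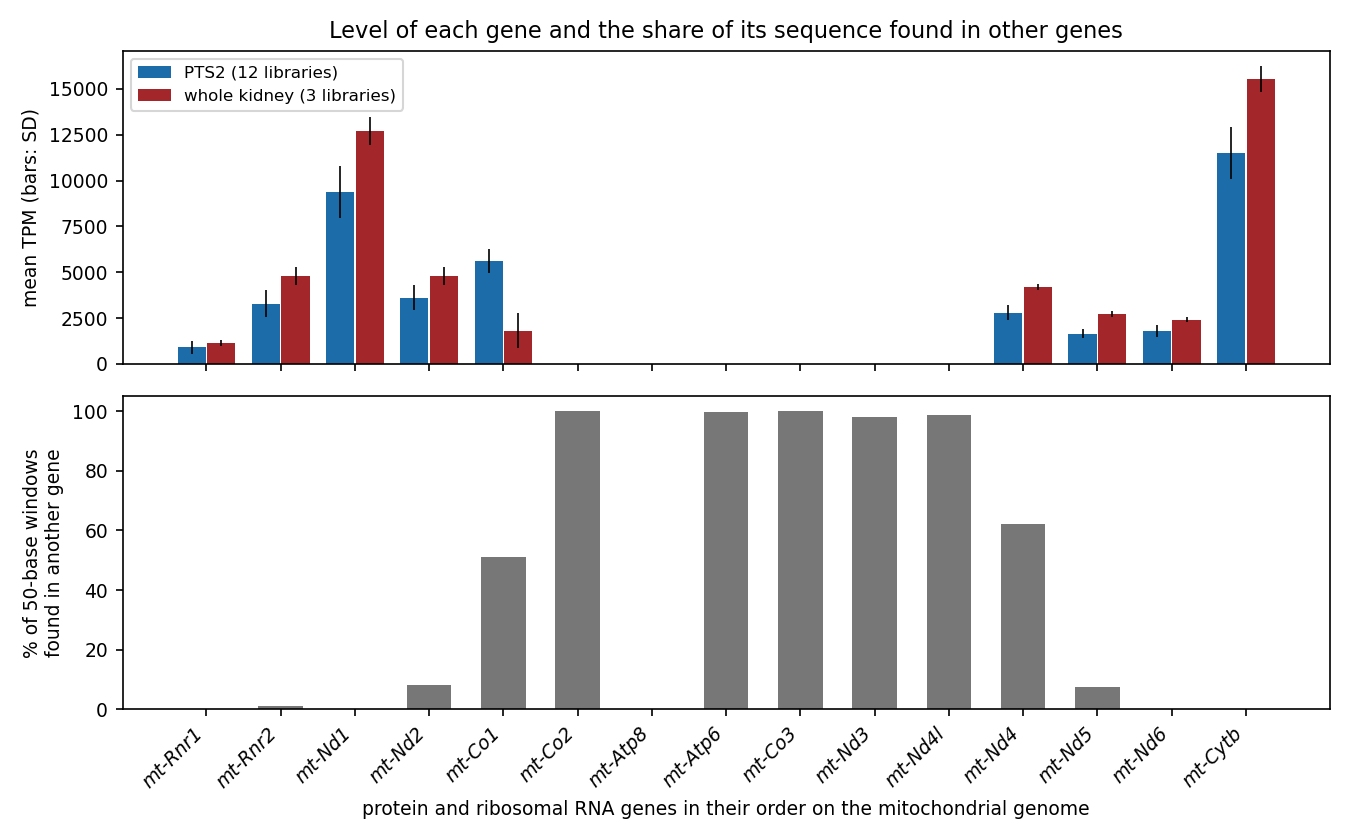
Protein and ribosomal RNA genes in their order on the mitochondrial genome. Upper panel: mean TPM with SD in 12 PTS2 and 3 whole kidney libraries; lower panel: percent of the 50-base windows of each gene found exactly in the transcript of another gene. The 6 genes from mt-Co2 to mt-Nd4l are listed at 0. Nearly all windows of 5 of them are shared, and none of those of mt-Atp8. Only annotated transcripts were searched, so sequence between annotated copies is not covered.

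The detected genes ranked among the most abundant of the whole table. By mean TPM, mt-Cytb, the only mitochondrially encoded subunit of complex III, was rank 3 in the tubules and rank 3 in whole kidney, and mt-Nd1 was rank 5 in both. In the tubules mt-Co1, the catalytic subunit of complex IV, followed at rank 14, then mt-Nd2 (25), mt-Rnr2 (32), mt-Nd4 (40), mt-Nd6 (69), mt-Nd5 (79) and mt-Rnr1 (165). Neighbours in this order differed within single tubules as well. mt-Cytb was above mt-Nd1 in 11 of 12 tubules, mt-Nd1 above mt-Co1 and mt-Co1 above mt-Nd2 in 12 of 12, mt-Nd2 above mt-Rnr2 in 10 of 12 and mt-Nd6 above mt-Nd5 in 12 of 12. The ranges over tubules of mt-Nd1 and mt-Co1 did not overlap, and those of all other neighbours in this order did.

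Whole kidney had the same genes at the top and mt-Co1 near the bottom. There mt-Co1 held rank 69, below mt-Nd6 in 2 of 3 libraries, and mt-Nd5 was above mt-Nd6 in 3 of 3. mt-Nd2 and mt-Rnr2 were not separated in kidney, with mt-Nd2 higher in 1 of 3 libraries.

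**Figure D2:**
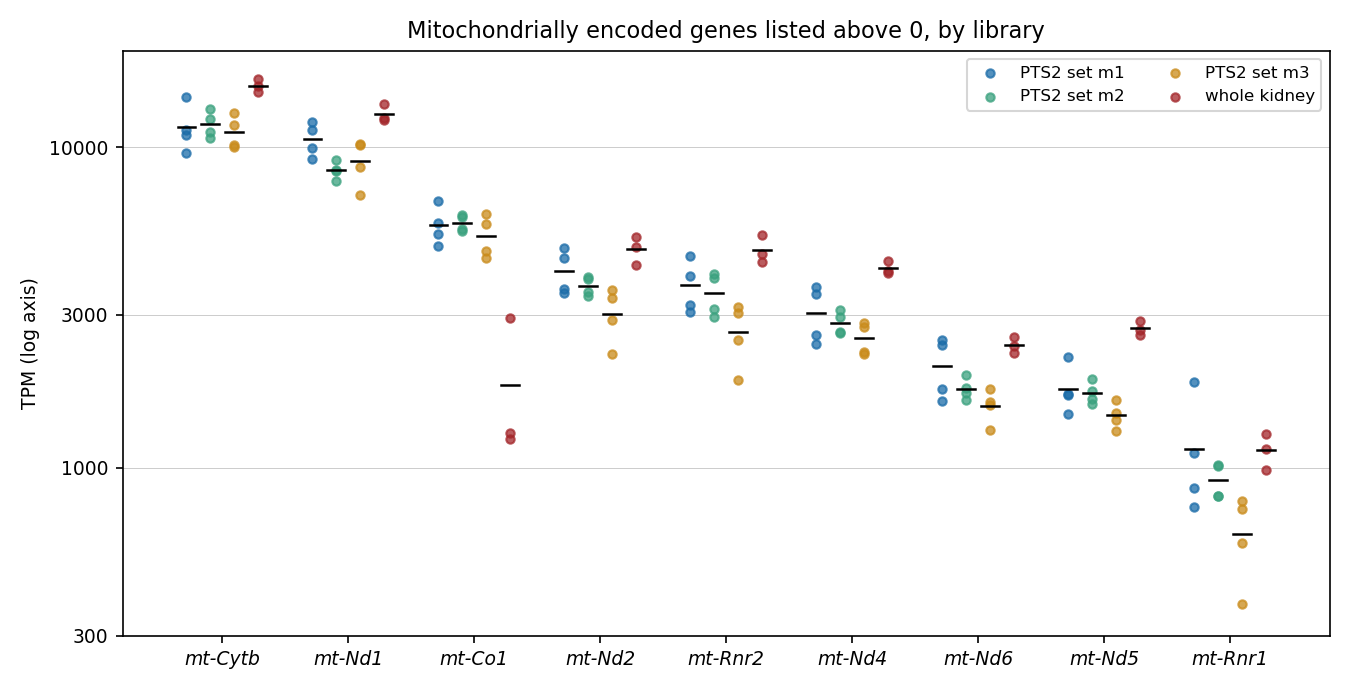
TPM on a log axis of the 9 genes listed above 0, 1 point per library, with black bars at the group means. mt-Co1 is higher in all 12 tubules than in the 3 kidney libraries, while mt-Cytb, mt-Nd1, mt-Nd4 and mt-Nd5 are lower in all 12.

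As a sum, mitochondrially encoded TPM took a smaller part of the tubule libraries. The sum was 4.06% ± 0.543 of library TPM in PTS2 (SD, n = 12; lowest 3.15%, median 4.02%, highest 5.11%). In whole kidney it was 4.94%, 4.77% and 5.33% (mean 5.01% ± 0.284, SD, n = 3). The tubule values were below the lowest kidney value in 11 of 12 libraries, and m1 replicate 4 lay within the kidney range. Protein genes made up 3.64% ± 0.453 of library TPM in PTS2 and 4.42% ± 0.222 in kidney, and the ribosomal RNAs 0.418% ± 0.107 and 0.592% ± 0.0624 (SD, n = 12 and 3). These sums received no test, because the genes were grouped with earlier results of these data known, and they leave out whatever the 28 genes at 0 would have added.

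Of the 9 genes, 7 were lower and 1 was higher in PTS2 than in whole kidney (limma, adjusted p under 0.05). Over all 12039 genes tested, 51.2% passed, 41.5% lower and 9.68% higher in PTS2, so a lower call was also common in the rest of the table. The median log2 difference was -0.44 for the 9 genes and -0.27 for all genes, on the log2(TPM + 1) scale. The PTS2 and kidney libraries did not overlap for 5 of the 9 genes, 4 lower and 1 higher, where 37.8% of all genes did so, 32.0% lower and 5.76% higher.

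Among complex I genes, mt-Nd5, which encodes a large membrane subunit, was lower by the widest margin. Its tubule values ran from 1307 to 2211 TPM with a median of 1635, against 2593, 2701 and 2878 in kidney. Every tubule lay below every kidney library. The log2 difference was -0.74 ± 0.11 (SE; limma adjusted p = 5.17e-05).

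mt-Nd4, the next protein gene upstream, ran from 2272 to 3662 TPM with a median of 2701 in the tubules, against 4128, 4065 and 4408 in kidney. Again no libraries overlapped, and the log2 difference was -0.60 ± 0.12 (SE; limma adjusted p = 0.000811). mt-Nd1 ran from 7123 to 11971 TPM with a median of 9180, below the kidney values of 13599, 12198 and 12373. Its log2 difference was -0.45 ± 0.13 (SE; limma adjusted p = 0.00659).

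mt-Nd2 and mt-Nd6 also encode complex I subunits, and here the groups touched. mt-Nd2 ran from 2262 to 4846 TPM with a median of 3556 in the tubules and stood at 4875, 4282 and 5261 in kidney, with 10 of 12 tubules below all 3. The log2 difference was -0.43 ± 0.16 (SE; limma adjusted p = 0.0317). mt-Nd6, the only protein gene on the minus strand (chrM:13552-14070), ran from 1315 to 2514 TPM with a median of 1738, against 2286, 2405 and 2557, and 10 of 12 tubules were below all kidney libraries. Its log2 difference was -0.44 ± 0.14 (SE; limma adjusted p = 0.0169). The values of mt-Nd6 may include reads antisense to it, which cannot be told apart without the strand setting. Leaving out kidney replicate 3 ended the calls of mt-Nd2 (limma adjusted p = 0.138), mt-Nd6 (0.0771) and mt-Rnr2 (0.0929). Leaving out kidney replicate 1 ended those of mt-Nd2 (0.0943) and mt-Rnr2 (0.0508), and leaving out kidney replicate 2 that of mt-Nd6 (0.0542).

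mt-Cytb of complex III was lower in every tubule. Its tubule values ran from 9605 to 14384 TPM with a median of 11228, against 14835, 15499 and 16289 in kidney. The log2 difference was -0.44 ± 0.11 (SE; limma adjusted p = 0.00293).

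mt-Co1 of complex IV went the other way and by more. Its tubule values ran from 4502 to 6780 TPM with a median of 5652, a narrow spread (coefficient of variation 11.8%, the smallest of the 9 genes). In kidney it stood at 1287, 1234 and 2929 TPM. Every tubule lay above every kidney library, and the means differed 3.09-fold. The log2 difference was 1.74 ± 0.19 (SE; limma adjusted p = 1.02e-06), and it was 1.55, 1.52 and 2.14 without kidney replicate 1, 2 or 3. Part of mt-Co1 is shared with nuclear copies, and the copy of the whole gene, Gm13340 on chromosome 2 with 97.6% identity, was at 0.71 to 1.92 TPM in the tubules and at 0.26, 0.15 and 0.69 TPM in kidney. That is 0.0255% ± 0.00531 of the mt-Co1 level in PTS2 and 0.0186% ± 0.00586 in kidney (SD, n = 12 and 3). Like mt-Co1, Gm13340 was higher in PTS2 (log2 difference 0.84 ± 0.16, SE; limma adjusted p = 0.000380). Reads from the gene and this copy may have been split between them, so the levels of Gm13340 and of mt-Co1 are uncertain. Of the 50-base windows, 51.1% were shared for mt-Co1 and 62.2% for mt-Nd4, against 0 for mt-Cytb and mt-Nd1. How shared reads were counted is not known. Ranks, ratios and percentages that set mt-Co1 or mt-Nd4 against other genes carry this limit.

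The ribosomal RNAs varied most from tubule to tubule. mt-Rnr2 ran from 1876 to 4576 TPM with a median of 3148, against 4664, 4378 and 5315 in kidney, and 11 of 12 tubules were below all 3. Its log2 difference was -0.57 ± 0.19 (SE; limma adjusted p = 0.0183). mt-Rnr1, the small ribosomal RNA, ran from 377 to 1855 TPM with a median of 817 and overlapped the kidney values of 1145, 982 and 1278. It did not pass the test (log2 difference -0.43 ± 0.29, SE; limma adjusted p = 0.235), and its coefficient of variation over tubules was 40.3%. The labels give the RNA as polyadenylated, and how that step acted on ribosomal RNAs was not tested.

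The direction of the 9 genes held under both other scalings, but several calls did not. After median-of-ratios rescaling, which moved the median of all genes from -0.27 to 0.00, 2 of the 9 genes passed: mt-Co1 higher (log2 difference 2.03 ± 0.22, SE; limma adjusted p = 7.76e-07) and mt-Nd5 lower (-0.44 ± 0.13; limma adjusted p = 0.0119). The other 7 lay between -0.14 and -0.30. In all genes 46.8% then passed, 23.1% lower and 23.7% higher. After quantile normalization 6 of the 9 passed, 5 lower and 1 higher, where 53.5% of all genes did, 18.9% lower and 34.6% higher. There mt-Co1 was at 1.58, mt-Cytb at -0.08 (limma adjusted p = 0.499) and mt-Nd1 at -0.17 (limma adjusted p = 0.355). So mt-Co1 higher and mt-Nd5 lower were called under all 3 scalings.

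**Figure D3:**
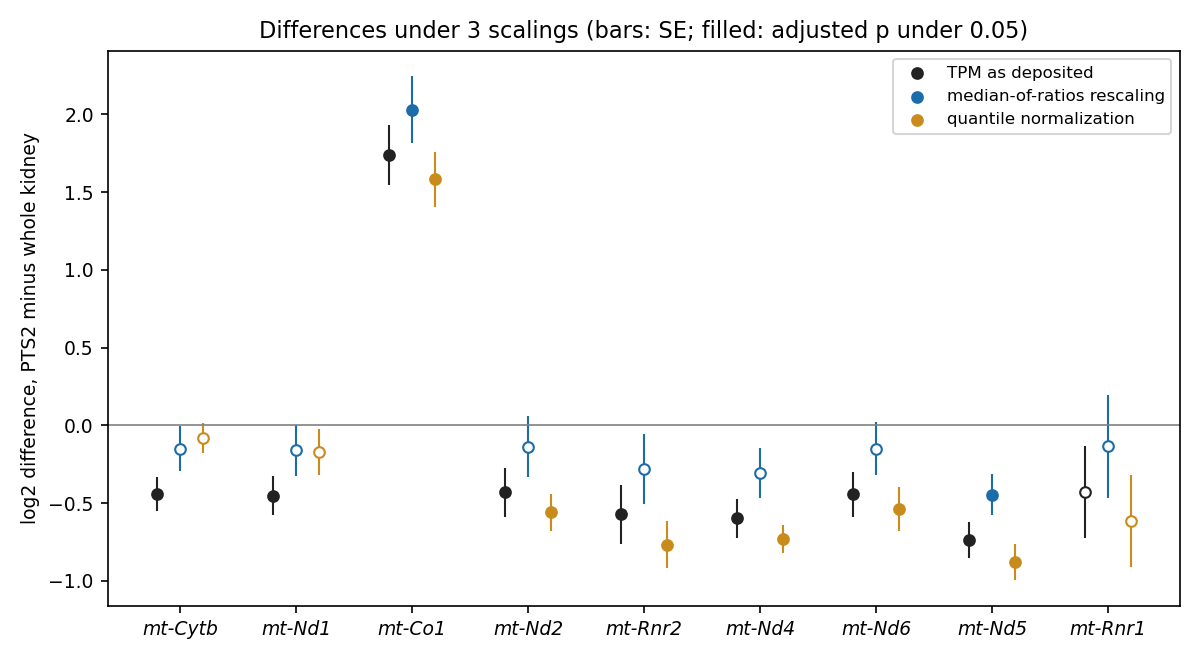
Log2 difference between PTS2 and whole kidney for the 9 genes under 3 scalings, with SE as bars. Filled points have a limma adjusted p under 0.05; mt-Co1 lies between 1.58 and 2.03 and mt-Nd5 between -0.44 and -0.88, both filled under each scaling.

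Ratios between genes of the same library are unchanged by a scaling that multiplies the whole library. The ratio of mt-Co1 to mt-Cytb was 0.488 ± 0.0220 in PTS2 (SD, n = 12; 0.450 to 0.519) and 0.0868, 0.0796 and 0.180 in the kidney libraries. The ratio of mt-Nd5 to mt-Nd6, its neighbour on the other strand, was 0.923 ± 0.0789 in PTS2 (SD, n = 12; 0.699 to 0.994) and 1.13, 1.12 and 1.13 in kidney. Reads antisense to either gene may enter this ratio, and their part was not tested. For both ratios the groups did not overlap. The ratio of mt-Nd1 to mt-Cytb overlapped between the groups, at 0.818 ± 0.107 in PTS2 and 0.821 ± 0.0839 in kidney (SD, n = 12 and 3). The ratio of mt-Rnr2 to mt-Rnr1 was 3.87 ± 0.577 in PTS2 and 4.23 ± 0.200 in kidney (SD), also with overlap.

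The make-up of the mitochondrially encoded TPM differed as well. mt-Co1 took 13.9% ± 0.704 of it in PTS2 (SD, n = 12; 12.3% to 14.9%) and 2.60%, 2.59% and 5.50% in the kidney libraries. mt-Cytb and mt-Nd1 together took 51.7% ± 2.17 in PTS2 and 56.4% ± 2.32 in kidney (SD). With mt-Co1 left out of the sum, mt-Cytb took 33.1% in PTS2 and 32.2% in kidney, and mt-Nd1 26.9% and 26.4%. mt-Nd4 (8.02% against 8.69%) and mt-Nd5 (4.74% against 5.64%) remained lower in the tubules on average. The highest tubule stayed below the lowest kidney library for mt-Nd4 (8.41% against 8.58%), and for mt-Nd5 the ranges overlapped (up to 5.51% against 5.39% upward).

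**Figure D4:**
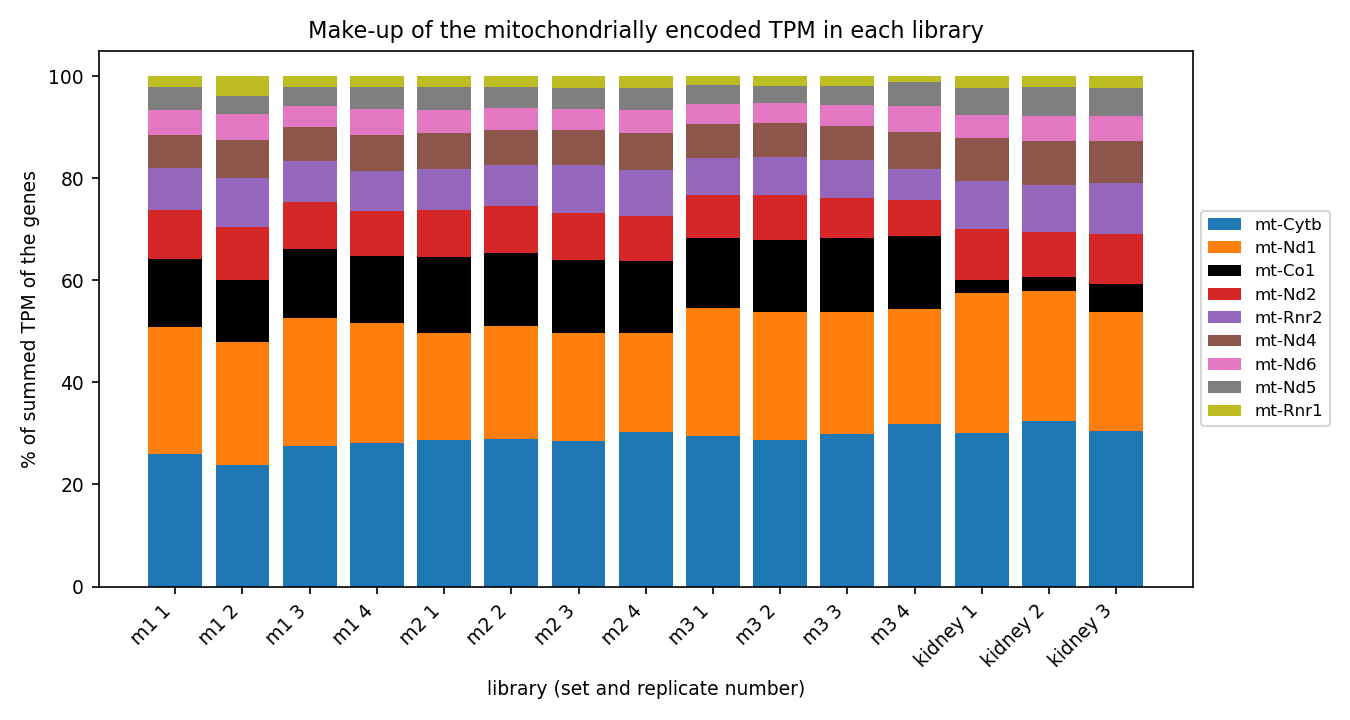
Percent of the summed mitochondrially encoded TPM taken by each gene, 1 stacked bar per library. mt-Co1, in black, takes 12.3% to 14.9% of each tubule bar and 2.59% to 5.50% of each kidney bar.

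The tubules were checked against cell type markers. Summed markers of all proximal segments were at 18398 to 24185 TPM in PTS2 and 18490 to 19072 in kidney. The 8 markers in this sum went both ways, with 2 lower and 2 higher in every tubule. Their log2 differences ran from -1.29 to 0.98, with 1 called higher and 2 lower (limma). The segments differed: markers of S1 were lower in the tubules (36.3 to 79.9 TPM against 818 to 892, 3 of 3 markers lower in every tubule) and those of S3 were higher (2250 to 4110 against 1087 to 1345). Of the pair of markers of the labelled S2 segment, Slc22a8, an organic anion transporter, was lower in every tubule (24.7 to 161 TPM against 270, 261 and 284; limma adjusted p = 0.000882) and the other overlapped (log2 difference 0.17; limma adjusted p = 0.670). Of 31 markers of other kidney cells, 29 were lower in every PTS2 library than in every kidney library. Among all genes tested the share was 32.0%. The macrophage list held 1 marker called higher in PTS2 (limma, log2 difference 0.77), and the thick ascending limb list 1 that was not called. None of the 31 markers was at 0 in all PTS2 libraries. m3 replicate 3 stood apart, with thick ascending limb markers at 1784 TPM where the other tubules had at most 415 and kidney 2815 to 3017. Without it the same number of mitochondrially encoded genes, 8 of 9, was called. Whole kidney holds all these cell types, and in bulk RNA fewer cells of a type and less RNA per cell cannot be told apart. The part of segment and cell make-up in the mitochondrial differences was not tested.

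Between the tubule sets, no mitochondrially encoded gene was called. The limma F test over m1, m2 and m3 gave 0 of 9 at an adjusted p under 0.05 and 4 at an unadjusted p under 0.05 (mt-Nd2, mt-Rnr2, mt-Nd6 and mt-Rnr1, adjusted p = 0.208 to 0.286). Over all 11300 genes 3.02% were called and 16.4% had an unadjusted p under 0.05. Most set means fell in one order: m1 was above m3 for 9 of 9 genes, m1 above m2 for 7 and m2 above m3 for 8. The genes come from the same libraries and shared precursor RNAs, so these counts are not separate observations. The median m3 minus m1 log2 difference was -0.26 for the 9 genes and 0.087 for all genes.

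mt-Rnr1 had the widest gap on the log2 scale, with 1148 ± 495 TPM in m1, 917 ± 115 in m2 and 624 ± 187 in m3 (SD, n = 4 each). Its m3 minus m1 log2 difference was -0.85 ± 0.27 (SE; limma adjusted p = 0.116), a contrast in which 0 of 9 genes were called and 5 had an unadjusted p under 0.05, against 3.17% and 18.4% of all genes. For m2 minus m1 and m3 minus m2, 0 of 9 genes were called as well (limma; 1 and 2 at an unadjusted p under 0.05), where 0.540% and 1.97% of all genes were. Without m1 replicate 1 the m3 minus m1 difference of mt-Rnr1 was -1.02 ± 0.27 and passed (limma adjusted p = 0.0444). mt-Nd2 averaged 4116 ± 661 TPM in m1, 3700 ± 258 in m2 and 3031 ± 591 in m3 (SD, n = 4 each). Its m3 minus m1 log2 difference was -0.45 ± 0.14 (SE; limma adjusted p = 0.116). The set means of mt-Cytb lay closer together, at 11550 ± 2024 TPM for m1, 11819 ± 1112 for m2 and 11164 ± 1328 for m3 (SD, n = 4 each).

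A few tubules held most of the extremes. m1 replicate 4 was the highest tubule for 6 of the 9 genes (mt-Cytb, mt-Nd1, mt-Co1, mt-Nd4, mt-Nd6 and mt-Nd5), and m1 replicate 2 for the other 3 (mt-Nd2 and both ribosomal RNAs). m3 replicate 4 was the lowest for 6 genes and m3 replicate 1 for mt-Nd6 and mt-Nd5. m1 replicate 2 also had the lowest ratio of mt-Rnr2 to mt-Rnr1, 2.47, and the lowest ratio of mt-Nd5 to mt-Nd6, 0.699. Among the replicate numbers, 0 of 9 genes were called and 0 had an unadjusted p under 0.05 (limma F test), where 2.71% and 21.1% of all genes did.

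Nuclear genes that serve the mitochondrial genome were set beside its transcripts. Polrmt, the mitochondrial RNA polymerase, was at 41.5 ± 5.83 TPM in PTS2 and 39.2 ± 3.82 in kidney (SD; log2 difference 0.07 ± 0.13, SE; limma adjusted p = 0.666). It passed as higher in PTS2 after median-of-ratios rescaling (0.36; limma adjusted p = 0.0119) and after quantile normalization (0.34; limma adjusted p = 0.0134). Tfam, which packages mitochondrial DNA and starts its transcription, was at 38.6 ± 4.63 and 43.0 ± 5.97 TPM (SD; log2 difference -0.15 ± 0.12; limma adjusted p = 0.294). Of 16 genes of mitochondrial transcription and replication, 0 were called and 2 had an unadjusted p under 0.05 (limma), with a median log2 difference of -0.02. Of 13 genes of RNA processing and transfer RNA maturation 2 were lower: Gtpbp3, which modifies transfer RNAs (-0.64; limma adjusted p = 0.00929), and Trnt1, which adds their CCA end (-0.31; limma adjusted p = 0.0323). Of 19 genes of RNA stability, polyadenylation and decay 5 were lower. Among these were Mtpap, the mitochondrial poly(A) polymerase (-0.27, limma adjusted p = 0.0270), and Pnpt1, an RNA-degrading enzyme (-0.36, limma adjusted p = 0.0230). The lowest log2 difference on this list was -0.43, in a gene not named here. After quantile normalization Mtpap passed as higher (0.21, limma adjusted p = 0.0188), and Pnpt1 passed under neither other scaling. Over all genes 51.2% were called and 41.5% were lower, so the lower calls of these lists were below the background share. The directions depended on the scaling: of the 48 genes of the 3 lists, 0 were higher and 7 lower as deposited, 20 higher and 0 lower after median-of-ratios rescaling, and 26 higher and 0 lower after quantile normalization.

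Among regulators of mitochondrial content, lower levels in PTS2 were found for 8 of 11 genes, where 41.5% of all genes were lower. Ppargc1a, a coactivator that drives mitochondrial biogenesis, was at 6.66 to 15.4 TPM in the tubules with a mean of 10.4 ± 2.76 (SD, n = 12), against 49.4, 52.4 and 49.8 in kidney. Every tubule was below every kidney library. The log2 difference came to -2.22 ± 0.21 (SE; limma adjusted p = 1.46e-07). Esrra, a nuclear receptor that works with Ppargc1a, was at 15.8 to 25.5 TPM in the tubules and at 54.7, 59.1 and 45.9 TPM in kidney (log2 difference -1.31 ± 0.14, SE; limma adjusted p = 5.34e-07). No regulator was higher as deposited (limma; 9.68% of all genes were), and the list's median log2 difference was -0.61, against -0.27 for all genes. Ppargc1a, Esrra and Nrip1, a corepressor (-0.91 ± 0.24; limma adjusted p = 0.00534), kept their direction and call under both other scalings, while the list as a whole gave 0 higher and 4 lower after median-of-ratios rescaling and 2 higher and 5 lower after quantile normalization.

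The nuclear subunits of the same complexes were called in both directions. Of 78 nuclear subunit genes, 6 were higher and 23 lower (limma), where 9.68% and 41.5% of all genes were, with a median log2 difference of -0.09, against -0.44 for the 9 mitochondrially encoded genes and -0.27 for all genes. Median-of-ratios rescaling gave 23 higher and 1 lower, and quantile normalization 2 higher and 41 lower, so the direction of the group changed with the scaling. In complex IV, where mt-Co1 was higher, 0 of 12 nuclear subunits were higher and 5 were lower, with a median of -0.23; after median-of-ratios rescaling 1 was higher and 1 lower, and after quantile normalization 0 and 9. Cox7a1, a complex IV subunit best known from muscle, was at 29.0 ± 7.50 TPM in PTS2 and 118 ± 24.2 in kidney (SD; log2 difference -2.02 ± 0.22, SE; limma adjusted p = 1.11e-06) and was lower under all 3 scalings. In complex I, whose 5 detected mitochondrial genes were lower as deposited, 3 of 36 nuclear subunits were higher and 7 lower. Median-of-ratios rescaling turned this to 9 higher and 0 lower, and quantile normalization to 2 higher and 15 lower. Ndufv1, which binds NADH, was higher under all 3 scalings (log2 difference 0.60 as deposited).

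**Figure D5:**
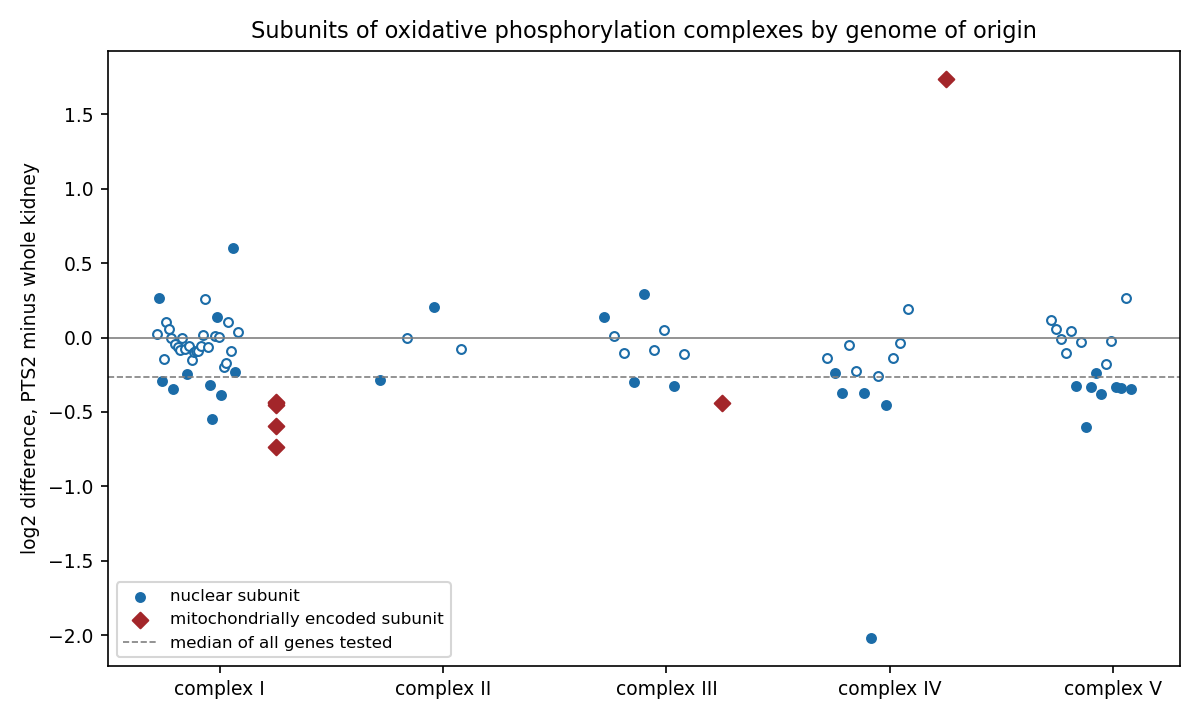
Log2 difference between PTS2 and whole kidney for nuclear subunits (circles, filled where the limma adjusted p is under 0.05) and detected mitochondrially encoded subunits (diamonds) of each oxidative phosphorylation complex; the dashed line is the median of all genes tested, -0.27. The mt-Co1 diamond in complex IV lies at 1.74, above its 12 nuclear partners, and the 5 complex I diamonds lie between -0.43 and -0.74.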

How the data were processed

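The authors deposited 1 table of TPM values for 47069 genes in 15 libraries. Per the labels' protocols, cDNA was amplified from polyadenylated RNA with the SMART-Seq V4 kit for very low input. STAR 2.5.1b, RSEM 1.2.31 and GRCm38.p5 are named, without roles, per the submitters' processing notes. The annotation release, strand setting and treatment of reads with several matches are not given in the sources used here. Another 4 columns, the authors' own means and errors, stayed out.

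Groups follow the description field of each sample. Testing used limma 3.58.1 (R 4.3.3), for genes averaging at least 1 TPM in the fitted libraries, on log2(TPM + 1), with a mean-variance trend, Benjamini-Hochberg adjustment over all genes tested and a threshold of 0.05. The fit of PTS2 against whole kidney used all 15 libraries, and the tubule set entered as correlated block (estimated correlation 0.0669). Tests among sets and among replicate numbers (set as an additive term) used the 12 PTS2 libraries. Scripts were tested on simulated data. A fold on the log2(TPM + 1) scale understates the change of low genes.

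Gene positions and sequences came from GENCODE M21 (GRCm38), which matched 46488 of 47069 gene IDs (98.8%). Copies were found with BLAST 2.17.0 and exact windows of 50 bases. Summaries and plots used Python 3.11.15, pandas 2.3.3, numpy 2.4.6 and matplotlib 3.10.9.

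The genes and lists were chosen with earlier results of these data known. The text names every mitochondrially encoded gene as its results require. From each other list it names at most 3 called genes, mostly those with the largest changes. Ppargc1a, Polrmt and Tfam are named as well, and so are nuclear copies that reached 1 TPM. Copies named although listed at 0, and Gm29216, were chosen after their values were seen. Alternatives were a pseudocount of 0.1, other filters and scalings, other block terms, and each library left out in turn.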

Additional observations from a re-analysis of the deposited data

How the results depend on the processing

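TPM keep no depth, and 3 kidney libraries limit the comparison. Of 216 single-gene results for mitochondrially encoded genes under the alternatives, 200 kept direction and side of the threshold, 16 lost their call and 0 reversed. Mitochondrially encoded genes called between PTS2 and whole kidney (8) fell to 2 after median-of-ratios rescaling and ranged from 5 to 8 with each library left out. Genes called over the whole table (6161) numbered 9399 without the filter on low values, 3113 where the mean had to reach 10 TPM, and 4761 to 6712 with each library left out. Among the sets (341), 196 were called with no filter, 888 with the replicate block, and 197 to 563 with each library left out. Among replicate numbers (306), limma called 0 with no filter and 0 with no set term (2871 and 1419 at an unadjusted p under 0.05), and 75 to 507 with each library left out. Tfam reversed to 0.13 after median-of-ratios rescaling and 0.086 after quantile normalization, where Gm13341 reversed to 0.24; the cause was not tested beyond the shift of the median over all genes. The replicate numbers were not taken as pairs: of 12 same-numbered pairs, 7 correlated above 0.1, the cut used. The 12 pairs ran from 0.025 to 0.273 with a mean of 0.143, against a mean of -0.048 for the 36 other pairs. The main tests among sets do not model this difference. With the replicate block, 7 of 9 mitochondrially encoded genes were called against kidney (mt-Nd2, limma adjusted p = 0.0581) and 0 of 9 among the sets; 10 of 12 tubules correlated best with their own number. The share of TPM ranged from 3.96% to 4.14% in PTS2 and from 4.86% to 5.13% in kidney with each library left out.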

Other observations

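Some ratios between mitochondrially encoded genes of the same tubule separated pairs of sets, although no single gene was called among the sets. None of the ratios examined separated all the sets from each other. The ratio of mt-Nd2 to mt-Nd1, neighbouring complex I genes on the plus strand, was 0.416 to 0.461 in the m2 tubules and 0.318 to 0.350 in the m3 tubules, which did not overlap. The m1 tubules lay at 0.365 to 0.427, which overlapped m2 but was also above every m3 tubule. The kidney libraries lay at 0.359, 0.351 and 0.425. The ratio of mt-Nd1 to mt-Cytb was 0.832 to 1.00 in m1 and 0.640 to 0.760 in m2, again without overlap, and 0.712 to 0.872 in m3. The ratio of mt-Rnr2 to mt-Rnr1 was 3.62 to 3.96 in m2 and 4.01 to 4.98 in m3, also without overlap, and 2.47 to 4.05 in m1. The ratio of summed ribosomal RNAs to summed protein genes was 0.0770 to 0.102 in m3. That was below every tubule of m1 (0.111 to 0.157) and m2 (0.113 to 0.133), and those sets overlapped each other. For mt-Co1 to mt-Cytb, mt-Nd5 to mt-Nd6 and mt-Nd4 to mt-Nd5, all sets overlapped. These ratios and sets were singled out after their values were seen, so no test is given. How often sets of 4 tubules fail to overlap by chance was not examined.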
